A study of Setaria italica with 18 samples.

Results

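Only 7 of the 29108 genes in the leaf expression table of foxtail millet had at least 1 FPKM in all 9 libraries of the variety B175 and under 0.1 FPKM in all 9 libraries of the variety JK3. FPKM scales the fragments counted on a gene to its length in kilobases and to the size of the library. At least 1 FPKM in all 9 B175 libraries was found for 15255 genes, so the 7 are a small part of what B175 leaves expressed. The reverse rule, at least 1 FPKM in all JK3 libraries and under 0.1 in all B175 libraries, was met by 8 genes. The genes were chosen by their FPKM in both varieties, so these levels are given as a description without a test.

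B175 is the salt-sensitive and JK3 the salt-tolerant variety of foxtail millet (Setaria italica), a C4 cereal grass. Seedlings of both varieties received diluted artificial seawater, which causes saline-alkali stress, and leaves were taken at 0, 12 and 24 h. The groups B0, B12 and B24 are B175 leaves and J0, J12 and J24 are JK3 leaves at these times, with 3 libraries each from biological replicates, 18 in all. The 0 h leaves are the baseline in each variety, and seedlings given water alone were not analysed here. With equal day and night of 12 h, the 12 h leaves came from the opposite phase of the day to those of 0 and 24 h, so time of day and treatment cannot be told apart in comparisons with 12 h.

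Each library held between 34738627 and 38798886 fragments on genes. The libraries carried the RNA of green leaves: the 14 genes of chlorophyll a-b binding proteins summed to at least 1429 FPKM and the 3 genes of pyruvate, phosphate dikinase, an enzyme of the C4 cycle, to at least 1943 FPKM in every library. In B24, replicate 2 correlated less with the other libraries of its group (0.939 and 0.942 across genes on the log2 scale) than any other pair of B175 libraries of the same group did (0.978 or more). Without it the same genes were called at 24 h against 12 h, and Seita.4G091300 was called in addition at 24 h against 0 h (log2 fold change -1.15, adjusted p = 0.012 from limma).

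The varieties of a crop differ in gene content as well as in gene activity. Disease resistance genes and other families that occur in several copies are known to vary most, since a plant that lacks a copy often keeps a related gene. A gene that is silent, missing from the genome or too different in sequence for its reads to be aligned gives the same empty column in RNA data. Only RNA was measured here, and whether JK3 carries these 7 genes was not tested. In leaves, which hold several cell types, fewer cells of a type and less RNA per cell cannot be told apart either.

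Of the 7 genes, 2 had a description in the table. Seita.7G040000 on chromosome 7 is described as Protein HASTY 1 (HST1), the plant relative of exportin 5. In Arabidopsis, HASTY takes part in the production and export of microRNAs and shapes leaves and the timing of development, and the table lists microRNA export from the nucleus and leaf morphogenesis among its terms. Seita.4G236600 on chromosome 4 is described as Pterocarpan synthase 1 (PTS1). In legumes this enzyme, a member of the dirigent protein family, closes the ring of pterocarpans, which are defence compounds against fungi. The other 5, Seita.2G147500, Seita.3G104200, Seita.4G091300, Seita.5G251800 and Seita.6G024200, had no symbol, description or functional term. No gene of the 7 fell in the lists of disease resistance proteins, protein kinases, F-box proteins, cytochrome P450 enzymes, transporters or transcription factors, nor in any further list drawn from the descriptions. A description was given for 28.6% of the 7 genes, against 77.5% of the 15248 other genes at 1 FPKM or more in all B175 libraries.

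The genes without a description were also short. The coding length implied by the FPKM was 255 bases for Seita.4G091300, 259 for Seita.2G147500, 297 for Seita.5G251800, 330 for Seita.6G024200 and 693 for Seita.3G104200, and 615 bases for Seita.4G236600. Only Seita.7G040000 was long, with 3483 bases. The median of the 7 was 330 bases and that of the other B175-expressed genes 1146 bases. Under 400 bases were 4 of the 7 genes, 57.1%, and 8.53% of the others.

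In B175 all 7 genes were expressed at a low to moderate level. Their mean FPKM over the 9 B175 libraries ranged from 2.88 in Seita.3G104200 to 11.4 in Seita.6G024200, with a median of 5.75, whereas the median of the other B175-expressed genes was 21.2. Seita.7G040000 averaged 8.20 ± 1.66, Seita.4G236600 7.29 ± 2.77, Seita.5G251800 5.75 ± 2.23, Seita.4G091300 4.82 ± 2.41 and Seita.2G147500 4.11 ± 2.13 FPKM (SD over 9 libraries of 3 times). Neighbours in this order lay within 1 SD of each other. Even the highest, Seita.6G024200, stood above only 30.4% of the genes expressed in all B175 libraries. The rule bears on these levels, since even a small trace of a highly expressed gene can pass 0.1 FPKM in JK3. Seita.7G289200, with a mean of 77.6 FPKM in B175, was kept out by a single JK3 library.

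**Figure D1:**
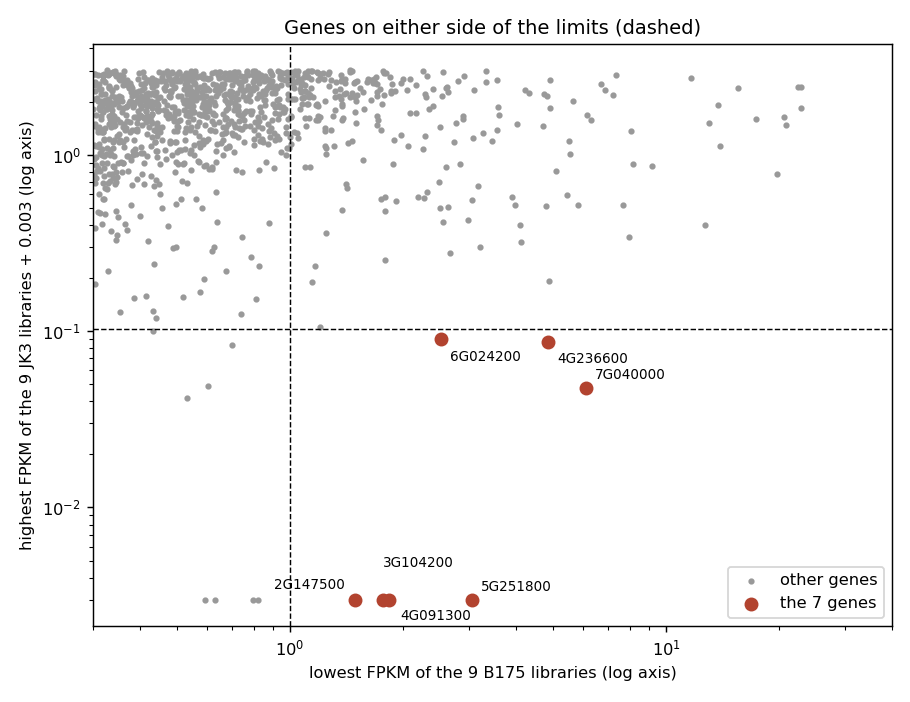
Each point is a gene near the limits, placed by its lowest FPKM among the 9 B175 libraries (x, log axis) and its highest FPKM among the 9 JK3 libraries plus 0.003 (y, log axis), with dashed lines at the limits of 1 and 0.1 FPKM. The 7 genes (red) sit in the lower right corner, and 4 of them lie at 0 in JK3, with the nearest other genes just across the lines.

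In JK3, 4 of the 7 genes had no fragment in any of the 9 libraries, which together held 339774366 fragments. They were Seita.2G147500, Seita.3G104200, Seita.4G091300 and Seita.5G251800, with 359, 674, 416 and 576 fragments in the B175 libraries. Taken without regard to the rule, a count of 0 allows up to 3 fragments over the 9 JK3 libraries. This is 0.0127 FPKM for Seita.3G104200 and between 0.0297 and 0.0346 FPKM for the other 3. Against this limit their level in B175 was 226-fold higher for Seita.3G104200, 193-fold for Seita.5G251800, 139-fold for Seita.4G091300 and 120.3-fold for Seita.2G147500. In J24 replicate 1, 1 fragment on Seita.6G024200, with 330 bases, came to 0.0872 FPKM. For the shorter Seita.2G147500, Seita.4G091300 and Seita.5G251800 the rule of under 0.1 FPKM thus left little or no room for fragments. Their counts of 0 largely follow from the rule.

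The remaining 3 genes left traces in JK3. Seita.6G024200 had 1264 fragments in the B175 libraries and 2 in the JK3 libraries, 1 each in J24 replicates 1 and 3, a ratio of 635 after correction for depth (95% exact binomial interval 176 to 5252). Seita.4G236600 had 1513 fragments in B175 and 3 in JK3, a ratio of 507 (173 to 2461). For Seita.7G040000 there were 9667 fragments in B175 and 19 in JK3, spread over 6 libraries with at most 6 in each, and the ratio was 512 (327 to 850). These intervals and limits cover counting error only, not the spread between libraries. They are no test of the difference, since the rule chose the genes by it. Nor do they allow for the rule, which admitted only low counts in JK3, so they do not bound the true ratios.

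Values close to the limits were few. Just inside, the lowest B175 values were 1.49 FPKM for Seita.2G147500 and 1.76 FPKM for Seita.3G104200, and the highest JK3 values were 0.0872 FPKM for Seita.6G024200 and 0.0839 FPKM for Seita.4G236600. Just outside in JK3 were Seita.6G102200, described as the DNA replication protein PSF3, with 0.103 FPKM from 2 fragments in J24 replicate 1, and Seita.5G015900, a G-type lectin receptor kinase, at 0.185 FPKM. Just outside in B175 were Seita.7G018500 and Seita.2G166200, both without a description, whose lowest B175 libraries had 0.820 and 0.797 FPKM. Neither had a fragment in JK3.

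**Figure D2:**
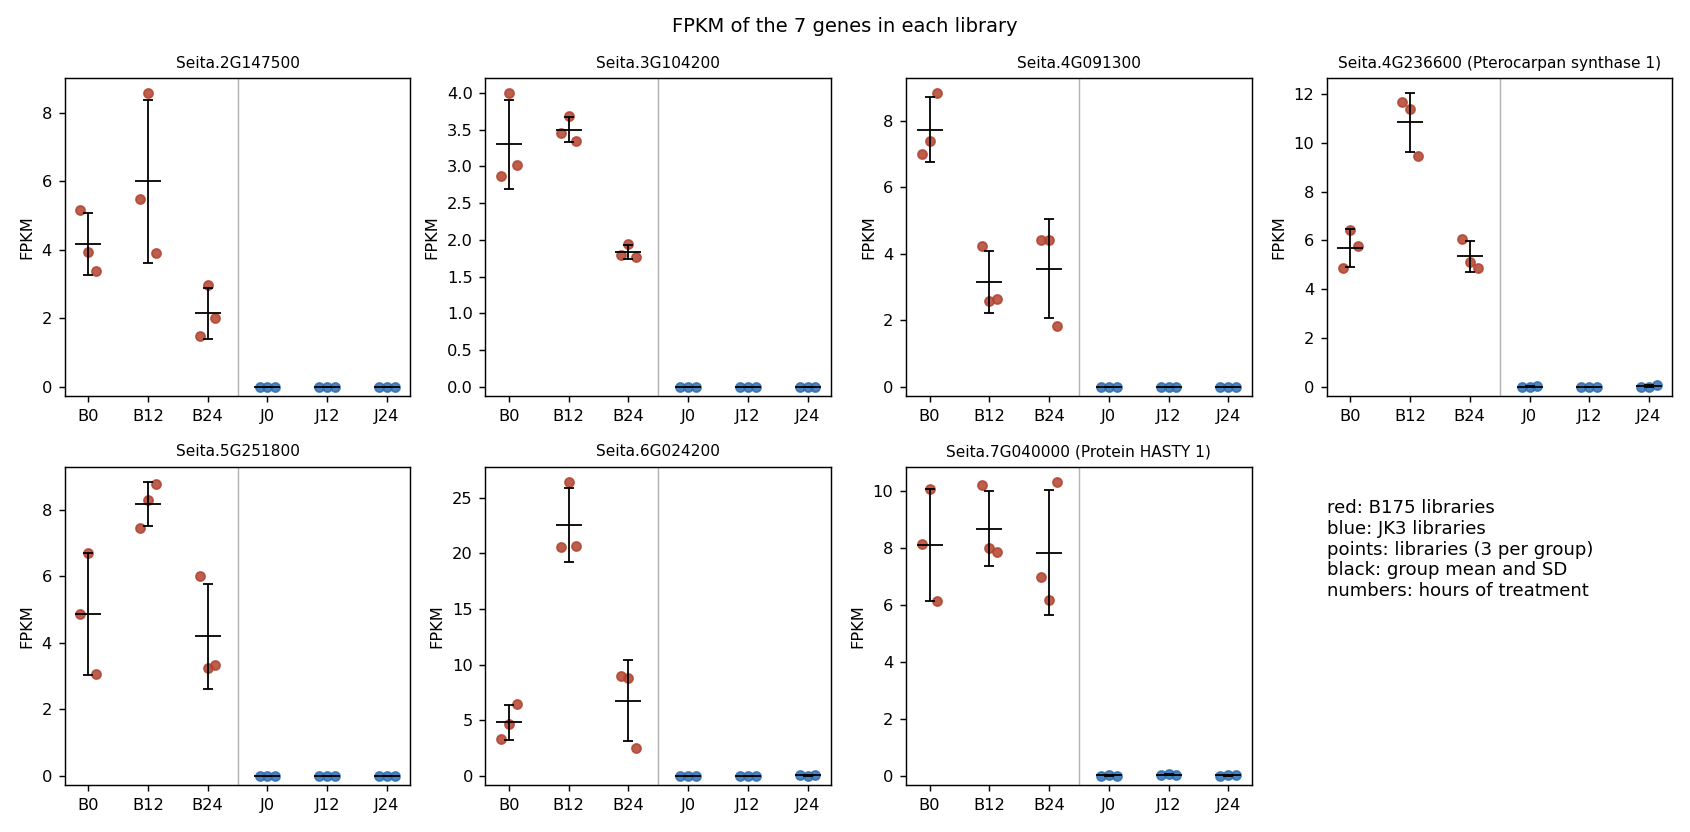
FPKM of each of the 7 genes in the 18 libraries (points), by group, with B175 in red left of JK3 in blue and black marks for the group mean and SD (n = 3). No JK3 library reaches 0.1 FPKM in any panel, and the B12 libraries of Seita.6G024200, at 20.6 to 26.4 FPKM, stand above all other B175 libraries of that gene.

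The 7 genes lay on 6 chromosomes by the number before the G of their identifiers. Chromosome 4 held 2, and chromosomes 2, 3, 5, 6 and 7 held 1 each. Chromosome 4 holds 8.18% of the B175-expressed genes. No member lay on chromosome 9, which holds 18.6% of them, nor on chromosomes 1 and 8 with 12.01% and 5.10%. The reverse rule put 4 of its 8 genes on chromosome 7. With counts this small the positions are a description only.

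The 7 genes formed no runs of neighbours. The pair on chromosome 4, Seita.4G091300 and Seita.4G236600, was separated by 1151 listed genes. Allowing up to 2 listed genes between members, identifier numbers within 100, under 0.2 FPKM in JK3 or at least 0.5 FPKM in B175 gave no run either. The reverse rule had 1 pair of adjacent genes, Seita.7G004800 and Seita.7G004900.

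Of the 14 genes next to the 7 in the table, 6 had at least 1 FPKM in all 18 libraries of both varieties. A total of 11 had a mean of at least 0.1 FPKM and were tested between B175 and JK3 over the 3 times (limma on log2(FPKM + 1) of all 18 libraries, with calls set at an absolute log2 fold change over 1 with adjusted p below 0.05). By this test limma called 0 of the 11, also after scaling, with 7 at an unadjusted p under 0.05. An adjusted p below 0.05 under the fold change limit was found for 4 that were higher in B175 and 2 that were lower. The shares of all genes at these p limits were not counted. Closest to the fold change limit was Seita.5G251700, beside Seita.5G251800, with 8.08 ± 4.75 FPKM in B175 and 3.22 ± 1.09 FPKM in JK3. Its log2 fold change was 0.97 (limma, adjusted p = 0.000345), and 0.9999 after scaling. Over all 23824 genes tested, 6.98% were called, 3.11% higher and 3.87% lower in B175. The median log2 fold change of the 11 was 0.15. For example, Seita.3G104200 lies between Seita.3G104100, described as the pre-mRNA splicing factor SRL1, with 50.8 ± 8.68 FPKM in B175 and 45.3 ± 4.68 FPKM in JK3, and a gene for an E3 ubiquitin ligase, Seita.3G104300, with 51.1 ± 20.7 FPKM in B175 and 41.4 ± 14.7 FPKM in JK3 (SD, n = 9 each). Both were at 20.7 FPKM or more in every library. Seita.3G104300 was 1 of the 4 higher in B175 (log2 fold change 0.25, adjusted p = 0.037 from limma).

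Next to Seita.6G024200 on one side is Seita.6G024000, which encodes TFB2, a subunit of the general transcription and DNA repair factor IIH, with 11.0 ± 2.89 FPKM in B175 and 9.26 ± 1.79 FPKM in JK3. On the other side is an aspartokinase gene, Seita.6G024300, which reached at most 0.422 FPKM in B175 and had 0 in all JK3 libraries, too low to be tested. Seita.7G040000 lies among genes of ABC transporters of the C family. Of these Seita.7G040200 had 6.30 ± 4.30 FPKM in B175 and 9.57 ± 4.04 FPKM in JK3 (log2 fold change -0.65, standard error 0.18, adjusted p = 0.0126 from limma).

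Within 5 listed genes on each side there were 70 neighbours, of which 53 were tested, 3 were called higher and 3 lower in B175, 11.3% of those tested against 6.98% of all genes. With the called genes included, 16 higher and 8 lower had a limma adjusted p under 0.05, and the share of all genes was not counted. Seita.3G104400, 2 places from Seita.3G104200, had 6.89 ± 3.87 FPKM in B175 and 1.92 ± 1.64 FPKM in JK3 (log2 fold change 1.45, standard error 0.27, adjusted p = 0.000843). Around Seita.4G236600 the pattern was mixed. An L-ascorbate oxidase gene 2 places away, Seita.4G236400, had 78.8 ± 69.0 FPKM in B175 and 23.8 ± 17.8 FPKM in JK3 (log2 fold change 1.67, standard error 0.29, adjusted p = 0.000391). The undescribed gene Seita.4G236200, 4 places away, went the other way, with 0.0687 ± 0.147 FPKM in B175 and 10.2 ± 5.12 FPKM in JK3 (log2 fold change -3.25, standard error 0.16, adjusted p = 2.02e-10). It ranged from 0 to 0.417 FPKM in B175 and from 3.60 to 19.0 FPKM in JK3. Near Seita.5G251800, the acidic endochitinase gene Seita.5G251600 had 161.9 ± 114.8 FPKM in B175 and 724.5 ± 321.6 FPKM in JK3 (log2 fold change -2.30, standard error 0.37, adjusted p = 0.000226).

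**Figure D3:**
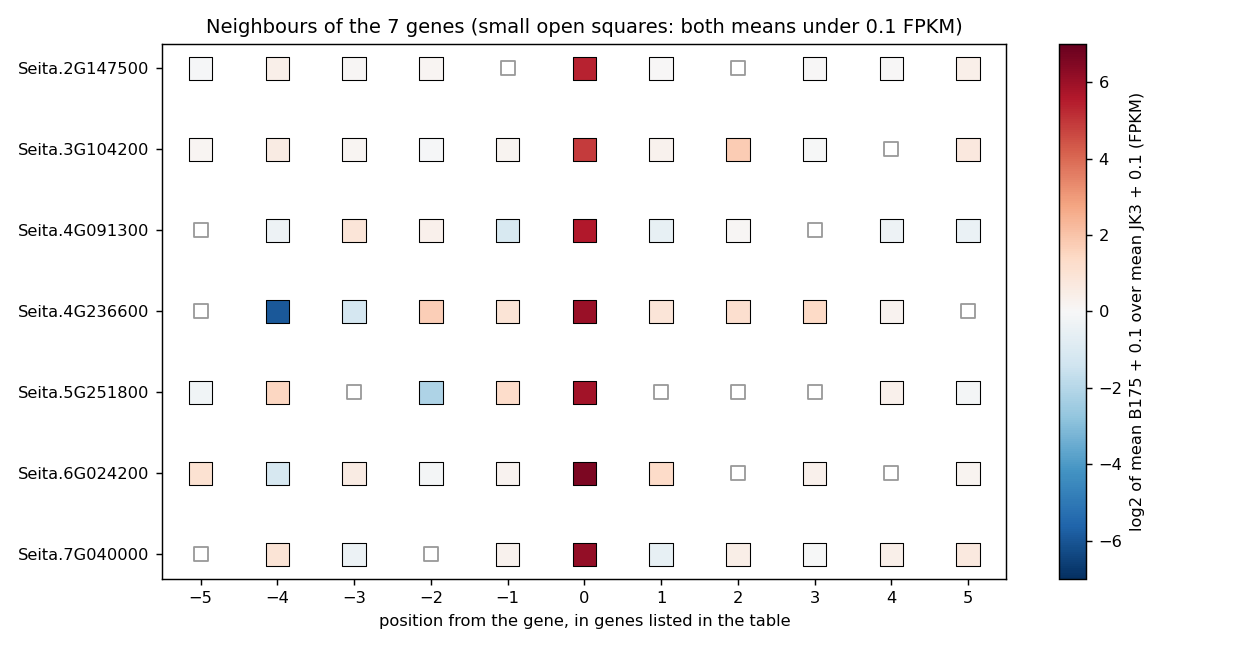
Each row is the surroundings of 1 of the 7 genes, with the position counted in genes listed in the table (x) and the colour giving the log2 ratio of mean FPKM, B175 over JK3, after adding 0.1. Position 0, the gene itself, is dark red in all 7 rows, while positions -1 and 1 are pale or empty in every row, and the dark blue square at -4 is Seita.4G236200.

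Both described genes have relatives with the same description that JK3 did express. Besides Seita.7G040000, 2 genes are described as Protein HASTY 1. Seita.5G164900 on chromosome 5, with a coding length of 3606 bases, had between 3.11 and 16.4 FPKM in the B175 libraries and between 4.38 and 19.0 FPKM in the JK3 libraries. It was not called between the varieties (log2 fold change -0.09, standard error 0.18, adjusted p = 0.729 from limma). The last, Seita.8G130900, was above 0 only in B0 replicate 3, at 0.0176 FPKM, and was at 0 in all JK3 libraries. In B175 leaves, fragments were counted on both long HASTY genes. In JK3 leaves almost all were counted on Seita.5G164900, with 11893 fragments there and 19 on Seita.7G040000. Whether JK3 holds transcripts of Seita.7G040000 that could not be aligned was not tested. Where sequences are nearly identical, reads of 1 copy can be counted on the other, and their part in these 19 fragments was not tested.

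Over time in B175, only Seita.5G164900 of the HASTY genes was called. Seita.7G040000 had 8.12, 10.1 and 6.13 FPKM in B0, 10.2, 7.98 and 7.84 FPKM in B12 and 6.99, 6.17 and 10.3 FPKM in B24. The 3 groups overlapped, and none of its time comparisons passed the test (log2 fold change 0.10 in B12 vs B0, adjusted p = 0.743, and -0.05 in B24 vs B0, adjusted p = 0.902). Seita.5G164900 had 14.9 ± 1.498 FPKM in B12 and 4.52 ± 1.02 FPKM in B0 (SD, n = 3 each), and the increase was 1.54 as a log2 fold change (SE 0.37, adjusted p = 0.00556). After median-ratio scaling it was 0.96 (adjusted p = 0.0486) and under the limit. In JK3 the same gene had 16.9 ± 2.19 FPKM in J12 and 5.04 ± 0.570 FPKM in J0.

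Seita.7G040000 made up 36.7 ± 1.80% of the summed FPKM of the HASTY genes in B12 and 64.0 ± 4.76% in B0 (SD, n = 3 each). The shares did not overlap (exact permutation test, two-sided, p = 0.1, the smallest that 3 libraries against 3 allow). In B24 the share was between 45.4% and 66.5%. In JK3 it was at most 0.551% in any library, where the rule requires the gene to be near 0.

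**Figure D4:**
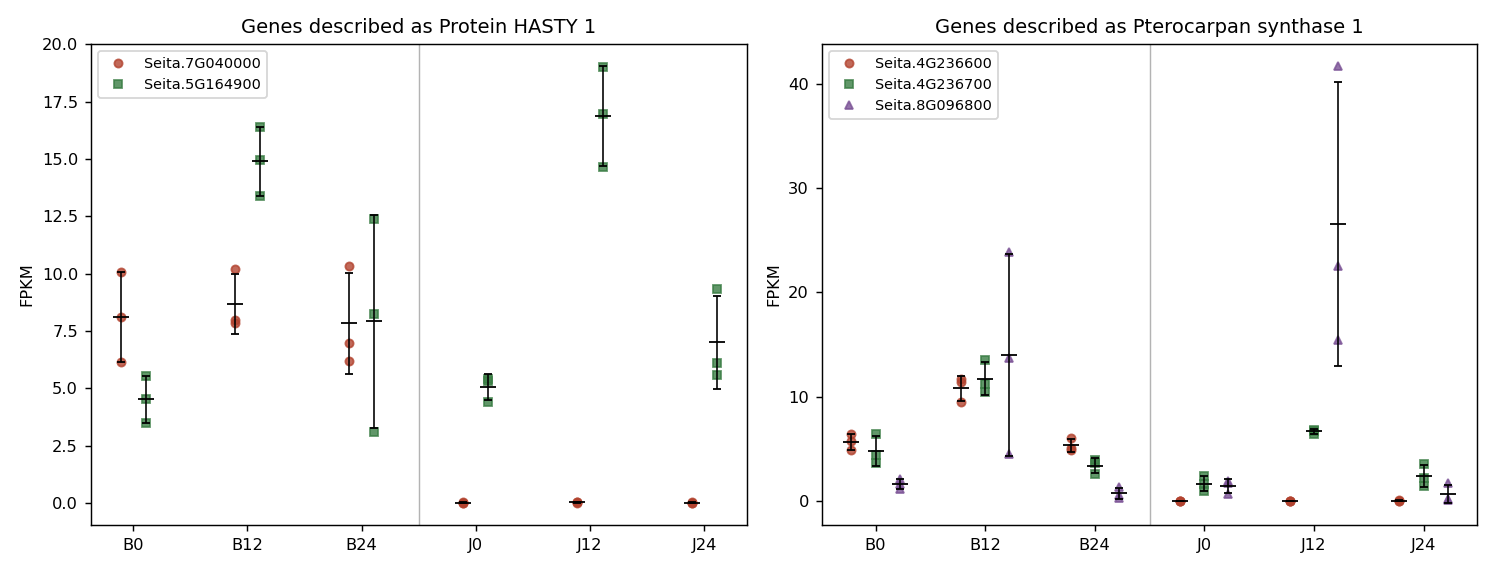
FPKM by group of the genes described as Protein HASTY 1 (left, without Seita.8G130900, which had 1 fragment in all) and Pterocarpan synthase 1 (right). Points are libraries, black marks the group mean and SD (n = 3), and in the JK3 groups the red points of Seita.7G040000 and Seita.4G236600 lie at the bottom while the other genes reach at most 19.0 and 41.7 FPKM.

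Of the 3 genes described as Pterocarpan synthase 1, Seita.4G236600 is directly followed by the second, Seita.4G236700, and the last, Seita.8G096800, lies on chromosome 8. Seita.4G236700 was expressed in both varieties, with 6.64 ± 4.02 FPKM in B175 and 3.58 ± 2.43 FPKM in JK3 over the 3 times (SD, n = 9 each). Its log2 fold change between B175 and JK3 was 0.75 (standard error 0.15, adjusted p = 0.00108), below the fold change limit. Seita.8G096800 was not called either (-0.25, standard error 0.28, adjusted p = 0.529).

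In B12 Seita.4G236600 had 11.7, 11.4 and 9.45 FPKM, and in B0 4.86, 6.43 and 5.76 FPKM. Every B12 library was above every B0 library, but the log2 fold change of 0.82 (SE 0.19, adjusted p = 0.00389) stayed under the limit of 1. In B24 it had 6.05, 5.13 and 4.86 FPKM, all below B12 and overlapping B0 (B24 vs B12 log2 fold change -0.90, standard error 0.19, adjusted p = 0.00359). After scaling, B12 vs B0 gave 0.25 (adjusted p = 0.316) and B24 vs B12 gave -0.46 (adjusted p = 0.0935), while the decrease was called with a pseudocount of 0.1 (-1.005) and with limma voom (-1.02). Both relatives were called, upwards at 12 h and downwards from 12 to 24 h. Seita.4G236700 had 11.7 ± 1.60 FPKM in B12 and 4.81 ± 1.42 FPKM in B0 (log2 fold change 1.15, adjusted p = 0.00208), and after scaling the change was 0.58 (adjusted p = 0.0687) and not called. Seita.8G096800 had 14.01 ± 9.66 FPKM in B12 and 1.66 ± 0.465 FPKM in B0 (log2 fold change 2.26, adjusted p = 0.00241).

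Summed over these 3 genes, the FPKM was 12.2 ± 2.45 in B0 and 3.13 ± 1.41 in J0, 36.6 ± 11.3 in B12 and 33.2 ± 13.8 in J12, and 9.48 ± 0.698 in B24 and 3.11 ± 1.32 in J24 (SD, n = 3 each). Seita.4G236600 contributed between 24.9% and 58.8% of the sum in the B175 libraries and at most 2.17% in the JK3 libraries. The rule requires this gene to be expressed in B175 and near 0 in JK3. Its part of the difference between the sums was thus fixed in advance, and the sums are a description only. Of the other 2 genes, Seita.4G236700 had a higher mean in B175 at all 3 times. Seita.8G096800 had a lower mean in B12 than in J12, and its means at 0 and 24 h were within 1 SD of each other between the varieties.

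Change with time within B175 was not used to choose the genes and was tested with limma on log2(FPKM + 1) of the 9 B175 libraries, over the 23827 genes with a mean of at least 0.1 FPKM. Calls required an absolute log2 fold change over 1 with an adjusted p (Benjamini-Hochberg over all genes tested) below 0.05. In B12 vs B0, 1 of the 7 genes was up-regulated and 1 down-regulated, beside 27.9% and 9.64% of all genes, 37.5% in all. From 12 to 24 h, 2 of the 7 were down-regulated and 0 up-regulated, beside 18.6% and 7.75% of all genes, 26.3% in all. In B24 vs B0 limma called 0 of the 7, beside 15.5% of all genes (9.9% up-regulated and 5.62% down-regulated). Limma voom on the recovered fragments also called 0, beside 2731 of the 23827 genes up-regulated and 1729 down-regulated. An unadjusted p under 0.05 was found for 3 of the 7 by limma, and the share of all genes at that p was not counted. With 7 genes these shares are not set apart from those of all genes.

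The whole transcriptome was displaced between the times, which bears on these values. Over all genes tested the log2 fold changes had medians of 0.43 at 12 h against 0 h, -0.32 at 24 h against 12 h and 0.09 at 24 h against 0 h. The medians of the 7 genes were 0.40, -0.86 and -0.17. Median-ratio scaling of the libraries brought the medians of all genes to 0.01, 0.02 and 0.00 and those of the 7 genes to -0.14, -0.44 and -0.31. After scaling, calls over all genes were 15.2% up and 15.6% down at 12 h against 0 h, 11.4% up and 9.83% down at 24 h against 12 h, and 8.28% up and 7.55% down at 24 h against 0 h. The signs of Seita.2G147500, Seita.3G104200 and Seita.7G040000 in B12 vs B0 turned negative with it.

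Seita.6G024200 was called in both comparisons with 12 h. It had 20.6, 26.4 and 20.7 FPKM in B12 from 258 to 318 fragments, against 3.34, 4.65 and 6.43 FPKM in B0. All B12 libraries were far above those of B0, and limma gave a log2 fold change of 2.05 (SE 0.39, adjusted p = 0.00129), with 1.46 after scaling (SE 0.40, adjusted p = 0.014). In B24 it had 8.93, 8.81 and 2.52 FPKM, all below B12. The decrease in B24 vs B12 was called at -1.74 (SE 0.39, adjusted p = 0.00491), and -1.28 (adjusted p = 0.0337) after scaling. Both calls held with each B175 library left out in turn, with log2 fold changes of 1.85 to 2.24 and -1.995 to -1.25. The 2 JK3 fragments of this gene were in J24, and J12 had 0.

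Seita.4G091300 changed in the other direction at 12 h. It had 4.24, 2.58 and 2.66 FPKM in B12, against 6.99, 7.38 and 8.83 FPKM in B0, without overlap, from 24 to 41 fragments in B12 and 68 to 87 in B0. Its log2 fold change of -1.09 (SE 0.29, adjusted p = 0.009) became -1.60 after scaling (SE 0.30, adjusted p = 0.00171). The call was lost without B0 replicate 3 or B12 replicate 2, where the change was -0.9996 and -0.99. In B24 it had 4.43, 4.41 and 1.83 FPKM, all below B0. This change was -0.99 (standard error 0.29, adjusted p = 0.0296), just under the fold change limit, and -1.15 (adjusted p = 0.0188) after scaling, past it.

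Seita.2G147500 had 1.49, 2.97 and 2.01 FPKM in B24, against 5.50, 8.58 and 3.92 FPKM in B12. The groups did not overlap, and the gene was called at -1.12 on the log2 scale (SE 0.29, adjusted p = 0.0107). These values rest on 14 to 28 fragments in B24 and 39 to 81 in B12. After scaling the change was -0.72 (adjusted p = 0.0813) and not called, and the call was also lost without B12 replicate 2 (-0.87, adjusted p = 0.0443) or B24 replicate 1 (-0.97, adjusted p = 0.0363). In B0 it had 5.16, 3.95 and 3.40 FPKM, which overlapped B12.

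Seita.3G104200 was the steadiest within groups. It had 2.88, 3.997 and 3.02 FPKM in B0, 3.46, 3.68 and 3.35 FPKM in B12 and 1.79, 1.94 and 1.76 FPKM in B24. Every B24 library was below all others. The log2 fold changes of -0.67 in B24 vs B12 (standard error 0.18, adjusted p = 0.0147) and -0.59 in B24 vs B0 (standard error 0.18, adjusted p = 0.0375) did not reach the limit of 1. After scaling they were -0.30 (adjusted p = 0.261) and -0.73 (adjusted p = 0.0199).

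Seita.5G251800 had 7.45, 8.31 and 8.77 FPKM in B12, against 4.86, 6.70 and 3.05 FPKM in B0, without overlap but with an adjusted p of 0.0607 (log2 fold change 0.69, standard error 0.29, limma). In B24 it had 6.03, 3.23 and 3.32 FPKM, all below B12 (log2 fold change -0.86, standard error 0.29, adjusted p = 0.0327). After scaling, the changes were 0.13 in B12 vs B0 (adjusted p = 0.732) and -0.44 in B24 vs B12 (adjusted p = 0.272). The decrease was called with a pseudocount of 0.1 (-1.004) and without B24 replicate 1 (-1.10, adjusted p = 0.013).

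**Figure D5:**
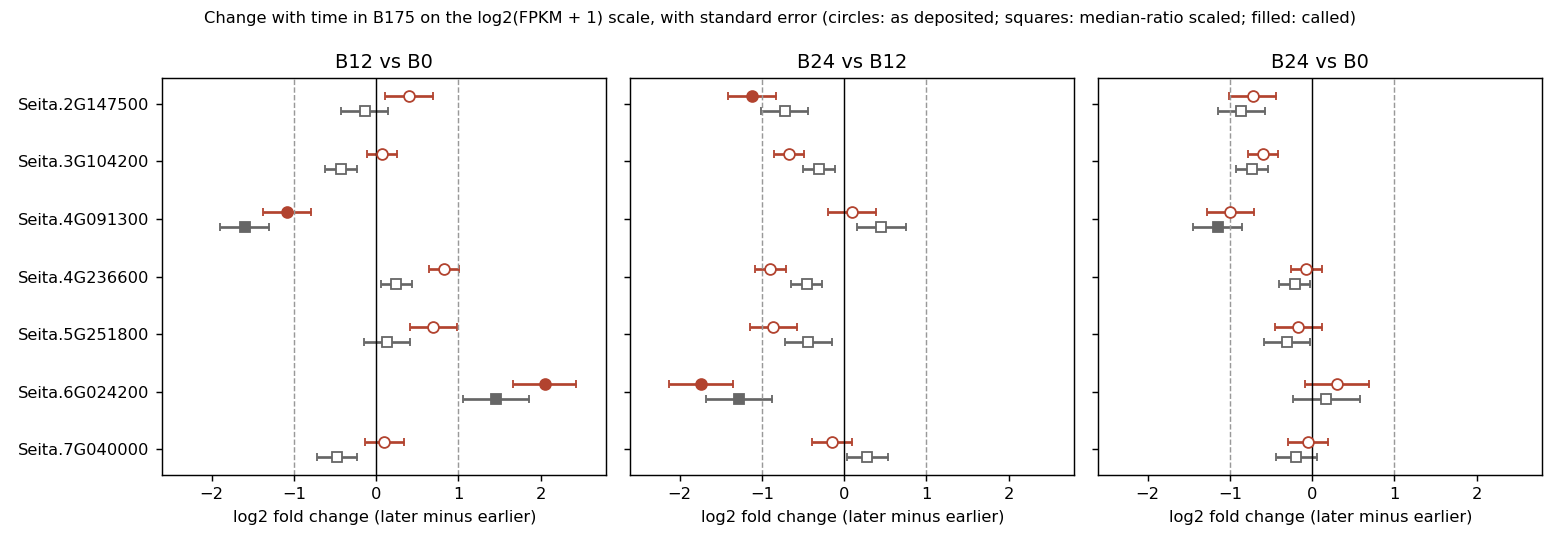
Log2 fold change of each of the 7 genes in B175 (x, later minus earlier time on the log2(FPKM + 1) scale, bars: standard error) in the 3 time comparisons, for FPKM as deposited (circles) and after median-ratio scaling (squares), with filled symbols for called changes and dashed lines at 1 and -1. Seita.6G024200 is filled in both scales at 2.05 and 1.46 in B12 vs B0, and the scaled values at 12 h lie to the left of the unscaled ones for all 7 genes.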

How the data were processed

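RNA of 18 leaf libraries was sequenced, and the authors deposited FPKM for 29108 genes under Seita v2.2 identifiers. The submitters' processing notes name fastp, HISAT2, HTSeq, DESeq2 and R 3.2.0 without their roles. The build listed there, mm10, is of mouse, and the build used for millet is not given in the sources used here. Columns were matched to samples by variety, time and replicate in their names. Whole fragments were recovered from the steps between the FPKM of each gene, for 100.0% of genes, and 96.7% of the whole-number lengths were multiples of 3, so lengths are called coding lengths. For a gene above 0 in a single library the steps do not settle the count. FPKM plus 1 were taken to log2, and limma 3.58.1 (R 4.3.3) was run on the 9 B175 libraries for the time comparisons, since the spread in JK3 is near 0 for these genes, and on all 18 libraries for the neighbours and copies between varieties. The self-test on simulated data used the same code. Fold changes on this scale understate the change of low genes. Other steps used Python 3.11.15, pandas 2.3.3 and scipy 1.17.1.

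The alternatives were other limits, pseudocounts, filters and scalings, a fit of all 18 libraries, the replicate block, the compared groups alone, voom and leaving out each library. Named by rule were all 7 genes (up to 8 of highest B175 mean), genes of the same description and those nearest the limits. Neighbours, the wider set and genes that 1 JK3 library kept out were named after their values were seen. The tests of neighbours and copies and the shares among copies were added then. The members and lists were chosen with earlier results of these data known. No identifier matched the RefSeq gene table at hand (0 found), so no coordinates or sequences are given.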

Additional observations from a re-analysis of the deposited data

How the results depend on the processing

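The number of genes followed the limits: 14 with at least 0.5 FPKM in B175, 4 with at least 2 FPKM in B175, 4 with exactly 0 in JK3, and 7 after median-ratio scaling, the same genes. With each library left out, 7 to 12 genes met the rule, and the 12 came from leaving out J24 replicate 2. The genes with a description numbered 5 at the 0.5 FPKM limit and 0 at exactly 0 in JK3. In B12 vs B0 the called genes numbered 1 to 2 with each library left out (1 without B0 replicate 3 or B12 replicate 2). In these fits 6499 of 23881 and 6457 of 23766 genes tested were called up, and 2156 and 2303 down. In B24 vs B12 they were 4 with a pseudocount of 0.1, 1 with median-ratio scaling, 1 with quantile normalization and 1 to 2 with each library left out (1 without B12 replicate 2). Over the 23827 genes tested, the pseudocount gave 2126 up and 5399 down, and quantile normalization 2508 up and 2582 down. Without B12 replicate 2, 1783 of 23766 genes were called up and 4120 down. In B24 vs B0, 1 was called, Seita.4G091300, with a pseudocount of 0.1, with median-ratio scaling and with quantile normalization, and 0 to 1 with each library left out (1 without B24 replicate 1 or 2). With the pseudocount 2997 genes were called up and 1649 down, and with quantile normalization 1798 up and 1875 down. Without B24 replicate 1 these were 1699 and 914, and without B24 replicate 2 they were 3405 and 2071. The shares of all genes after median-ratio scaling are given above. With the replicate block 2, 2 and 0 genes were called in these comparisons, the same genes as without it. Over all genes the block gave 6693 up and 2351 down, 1907 and 4480, and 2461 and 1462. The labels do not say whether same-numbered libraries belong together, and the correlations of their deviations ranged from -0.04 to 0.33. Of 378 values of single genes under an alternative, 363 had the same status, called or not called, 6 lost and 9 gained a call, and no called value changed sign. Most of the 378 belong to results that were not called. Seita.6G024200 kept both its calls under all 18 alternatives. Seita.4G091300 kept its call in B12 vs B0 under 16 of 18, and Seita.2G147500 its call in B24 vs B12 under 14 of 18. The short genes rest on as few as 14 fragments in a B175 library, which limits the time comparisons.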

Other observations

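Relaxing 1 limit, to at least 0.5 FPKM in B175 or to under 0.2 FPKM in JK3, added 10 genes to the 7, and 6 of the 10 had a description. They included 2 receptor kinases and 2 F-box proteins, the classes that recognise signals at the cell surface and select proteins for breakdown. Protein kinases of any kind made up 5.72% and F-box proteins 1.05% of the B175-expressed genes. The other described genes were Seita.6G102200 (PSF3) and Seita.8G159800 (Protein HLJ1). With 10 genes these counts are a description only. Seita.4G231800, described like the rice resistance kinase Xa21, averaged 2.16 FPKM in B175 and 0.0119 FPKM in JK3, and the F-box gene Seita.9G544900 averaged 6.97 FPKM in B175 and 0.0379 FPKM in JK3. The F-box gene Seita.4G257200 averaged 1.22 FPKM in B175 and had no fragment in JK3.

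Another 10 genes, of which Seita.6G102200 is also in the wider set, met the limits in all libraries but 1 of JK3, and J24 replicate 2 alone kept out 5 of them. The largest was Seita.7G289200, without a description, with 77.6 FPKM on average in B175, 3.69 FPKM from 20 fragments in J24 replicate 2 and 0 fragments in the other 8 JK3 libraries. Seita.8G229000, described as Calmodulin-binding protein 60 B, a family that acts in plant immunity, averaged 64.7 FPKM in B175 and had 3.08 FPKM from 166 fragments in J24 replicate 2 and 6 fragments in the other JK3 libraries. Its neighbour Seita.8G229100, described as the resistance protein Pikm1-TS, had 9 fragments in J24 replicate 2 and 0 elsewhere in JK3. In the 5 genes the value of J24 replicate 2 was 2.02% to 8.56% of the B175 mean. The 7 genes had 1 fragment in J24 replicate 2, which was 0.0910% of the B175 mean for Seita.7G040000. The limit in JK3 itself set this contrast, since it kept the 5 genes out and the 7 in. J24 replicate 3 kept out 2 further genes, the sulfotransferase gene Seita.6G209300 with 40 fragments and 0 in the other JK3 libraries, and Seita.7G052100, described as the resistance protein RGA5, with 29 fragments and 1 in the others.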
